A study of Mus musculus with 16 samples.

Results

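Immunoglobulin variable (V) gene segments were taken as every row of the normalized count table whose Ensembl identifier carries a mouse symbol starting with Ighv, Igkv or Iglv. The rule gave 108 of 6288 genes: 56 heavy chain segments (Ighv), 49 kappa light chain segments (Igkv) and 3 lambda light chain segments (Iglv). The GENCODE M21 annotation of GRCm38 lists 185, 160 and 3 such segments, so the table held 31.0% of 348, and the others were not analysed here. Of the 108, 99 are annotated as functional V genes and 9 as V pseudogenes, 7 of these in Ighv and 2 in Igkv. The Ighv rows lie on chromosome 12 from 113572927 to 116000461, the Igkv rows on chromosome 6 from 68036812 to 70704177 and the Iglv rows on chromosome 16 from 19085017 to 19260859.

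The study measured RNA by bulk sequencing in CD45-positive bone marrow cells enriched for the Lin-Ckit+Sca1+ (LSK) fraction, which holds haematopoietic stem and progenitor cells. Wild-type (WT) donors were C57Bl/6J mice, and the Tet2-deficient donors (Tet2-/-, also labelled C57Bl/6J) are deficient in Tet2, an enzyme that oxidises methylated cytosine. All donors carried CD45.2, were 3 to 4 months old and of both sexes, and their marrow was collected at 3% oxygen. RNA was taken from cells kept at that oxygen level (physioxia) or from cells given 6 hours in room air, at about 21% oxygen. Each genotype had 4 libraries per oxygen condition, which makes 4 groups: WT air, WT physioxia, Tet2-deficient air and Tet2-deficient physioxia. Enrichment used lineage depletion and bead selection, so other marrow cells can remain, and Tet2 was deficient throughout the mouse rather than in one cell type. The labels call the 4 libraries of a group matched biological replicates, but do not say how many mice each holds.

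An antibody gene is put together in developing B cells by V(D)J recombination. The recombinase joins 1 of many V segments to a D and a J segment in the heavy chain locus, or to a J segment in a light chain locus, and the joined exon is spliced to a constant region. Unjoined V segments are also transcribed at a low level in early lymphoid progenitors, before recombination. In bulk RNA the levels of V segments therefore come from a mixture of B-lineage cells, each of which carries few rearranged segments. Segments with similar sequence form numbered subgroups, given by the first number of the symbol, as in Igkv4-55.

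Many V segments differ by few bases, so the counting of each one rests on those bases. Parts of 3 pairs of coding sequences are shown because the results turn on them: Igkv5-45 with Igkv5-43 and Ighv14-1 with Ighv14-4 were near-identical pairs that moved in opposite directions between the genotypes, and Iglv1 and Iglv2 were the most abundant segments. Sequences are from the GENCODE M21 transcripts on GRCm38, with bases counted from 1 at the start codon, and capitals mark the bases that differ within each pair. Igkv5-45 (chr6:69775750-69776306) and Igkv5-43 (chr6:69823355-69823911) lie on the minus strand, 47.6 kb apart, and differ at 5 of 347 bases, all within the printed bases 11 to 164. Ighv14-1 (chr12:113931953-113932382) and Ighv14-4 (chr12:114176438-114176867), also on the minus strand, lie 244.5 kb apart and differ at 9 of 351 bases, all within the printed bases 34 to 280. Iglv1 (chr16:19085017-19085460) and Iglv2 (chr16:19260401-19260844), on the minus strand, lie 175.4 kb apart and differ at 11 of 351 bases, of which the printed bases 19 to 318 hold 9.
Igkv5-45: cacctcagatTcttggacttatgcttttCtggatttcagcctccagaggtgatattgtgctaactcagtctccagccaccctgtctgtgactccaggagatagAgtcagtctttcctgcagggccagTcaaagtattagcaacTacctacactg
Igkv5-43: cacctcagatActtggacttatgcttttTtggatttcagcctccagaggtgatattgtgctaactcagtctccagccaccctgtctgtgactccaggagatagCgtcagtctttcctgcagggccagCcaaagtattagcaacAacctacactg
Ighv14-1: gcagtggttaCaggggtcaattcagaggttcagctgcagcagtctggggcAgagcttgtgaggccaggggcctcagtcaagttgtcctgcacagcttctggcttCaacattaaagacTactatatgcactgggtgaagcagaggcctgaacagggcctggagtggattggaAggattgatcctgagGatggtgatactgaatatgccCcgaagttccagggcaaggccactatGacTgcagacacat
Ighv14-4: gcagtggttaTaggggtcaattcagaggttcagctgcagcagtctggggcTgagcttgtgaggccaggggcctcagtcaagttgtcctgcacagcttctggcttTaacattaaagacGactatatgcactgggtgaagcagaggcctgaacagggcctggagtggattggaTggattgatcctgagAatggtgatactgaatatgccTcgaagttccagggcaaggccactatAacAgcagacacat
Iglv1: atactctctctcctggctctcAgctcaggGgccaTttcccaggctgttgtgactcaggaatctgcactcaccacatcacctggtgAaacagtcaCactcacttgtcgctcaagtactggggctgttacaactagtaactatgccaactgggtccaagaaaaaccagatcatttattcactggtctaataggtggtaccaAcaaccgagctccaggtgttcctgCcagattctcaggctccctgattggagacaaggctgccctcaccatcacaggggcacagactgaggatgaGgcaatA
Iglv2: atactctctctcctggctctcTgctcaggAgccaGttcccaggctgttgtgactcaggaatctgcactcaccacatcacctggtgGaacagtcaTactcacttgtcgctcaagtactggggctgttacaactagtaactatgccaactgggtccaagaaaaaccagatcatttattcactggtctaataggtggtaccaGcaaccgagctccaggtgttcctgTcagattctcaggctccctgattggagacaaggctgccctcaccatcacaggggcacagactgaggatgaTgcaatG

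Each coordinate span above includes the intron between the leader exon and the V exon. Over the 108 segments, the identity of the coding sequence to the nearest annotated V segment ran from 60.9% to 99.7% (median 95%), and 17 segments had a relative at 97% or more. How reads that fit several segments were assigned is not given in the sources used here, so levels of these 17 are uncertain as to which copy they belong to. The coding lengths were 338 to 402 bases, and normalized counts are not scaled by length.

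Reads in the table came to between 7.77 and 15.7 M for each library, and V segments took 0.0957% to 0.126% in WT and 0.0293% to 0.0717% in Tet2-deficient libraries. Tet2 itself stood at normalized counts of 592 to 993 in WT and 447 to 626 in Tet2-deficient libraries, and the genotypes did not overlap within either oxygen condition. The table lists a minority of the annotated genes, and how they were chosen is not stated. Most of its genes differ between the genotypes, so the counts of segments past a test are to be read against the share of all tested genes past it. Tet2-deficient air libraries 1 and 2 stood apart from all other pairs in their V segments. Their segment composition correlated at r = 0.95 over 108 segments, against 0.57 to 0.84 in the other 27 pairs of Tet2-deficient libraries. The chi-square per segment between their reads was 2.69 (68 segments with at least 10 reads in the pair), against 13.7 in the next closest of 120 pairs. Over the other 5988 genes with at least 10 reads it was 39.7, the 11th lowest of the 120, so the libraries differ by more than sampling noise. That cannot show whether they come from separate mice, and shared mice would leave fewer independent replicates in the group. The libraries were kept as 2. The numbers of segments past each genotype test are also given with the pair averaged as 1 replicate.

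V segment transcripts were less abundant in Tet2-deficient cells than in WT cells at all 3 loci, in air and in physioxia. The summed normalized count of the 108 segments was 14337, 14761, 13130 and 12237 in WT air libraries 1 to 4 and 11913, 18249, 11463 and 13197 in WT physioxia. In Tet2-deficient libraries it was 4795, 4720, 7895 and 4768 in air and 3143, 7719, 3813 and 4574 in physioxia. Every WT library lay above every Tet2-deficient library. The means were 13616 ± 1150 in WT air against 5545 ± 1567 in Tet2-deficient air (± SD, n = 4, as for all levels below), and 13705 ± 3117 and 4812 ± 2024 in physioxia. The WT mean was 2.46 times the Tet2-deficient mean in air and 2.85 times in physioxia. A sum over chosen segments carries no test here. In bulk samples fewer B-lineage cells and less V RNA per cell cannot be told apart.

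**Figure D1:**
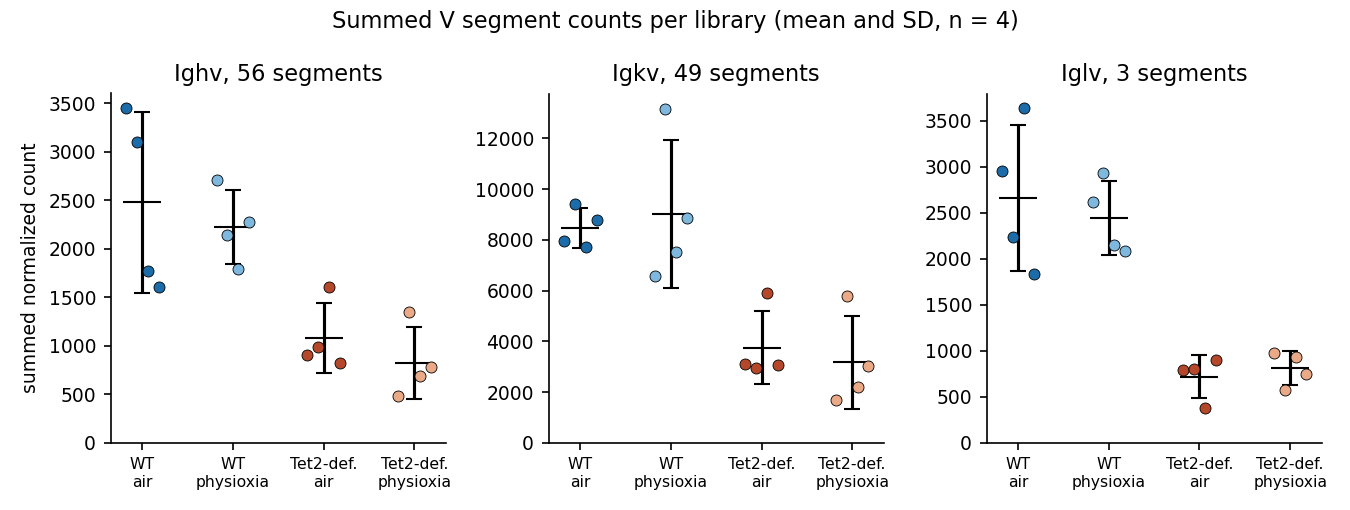
Summed normalized counts of the Ighv, Igkv and Iglv segments in each library (1 point per library, 4 per group), with the mean and SD of each group. The Igkv sums stood at 6582 to 13176 in WT and 1681 to 5905 in Tet2-deficient libraries, and both light chain loci and Ighv show the lower Tet2-deficient levels in air and in physioxia.

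By locus, the Iglv sum was 3.7 times as high in WT as in Tet2-deficient cells in air (2663 ± 794 against 719.6 ± 231) and 3.02 times in physioxia (2445 ± 404 against 810.9 ± 184). The Igkv sum was 2.26 times as high in air (8472 ± 787 against 3746 ± 1441) and 2.84 times in physioxia (9032 ± 2914 against 3178 ± 1831). The Ighv sum was 2.3 times as high in air (2481 ± 932 against 1079 ± 360) and 2.7 times in physioxia (2228 ± 381 against 824 ± 371). The lowest WT air library for Ighv, at 1603, lay just under the highest Tet2-deficient air library, at 1609, while for Igkv and Iglv the genotypes did not overlap within either oxygen condition. Igkv took most V reads in every library, 55.3% to 72.2% in WT and 53.5% to 75% in Tet2-deficient libraries. The Iglv share was 15% to 27.7% in WT and 4.83% to 31.1% in Tet2-deficient libraries, so the loci kept no fixed ratio. Of the 108 segments, 75 to 92 had a read in a WT library and 80 to 93 in a Tet2-deficient library, so the smaller sums did not come with fewer detected segments. A normalized count of 10 was reached by 56 to 76 segments in WT and by 38 to 58 in Tet2-deficient libraries.

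Segment by segment the genotypes differed in both directions. Of the 108 segments, 97 reached a normalized count of 10 or more in 4 or more libraries and entered the test (limma on log2 of the normalized count plus 1, Benjamini-Hochberg adjusted over all tested genes of the table, threshold 0.05). In air 29 segments were higher and 45 lower in Tet2-deficient cells, 76.3% of the 97, while 79.5% of all 6110 tested genes passed, 42.1% higher and 37.4% lower. In physioxia 23 were higher and 48 lower, 73.2%, against 69.4% of all tested genes, 35.9% higher and 33.6% lower. The share past the test was thus near that of the table as a whole. The same direction was called in both oxygen conditions for 58 segments, 21 higher and 37 lower, which is 78.4% of those called in air and 81.7% of those called in physioxia. This was 59.8% of the tested segments against 56.6% of all tested genes (29.1% higher and 27.5% lower), and no segment was called in opposite directions. Per the labels the enriched cells were divided between air and physioxia, so a call in both conditions is not an independent repeat. With Tet2-deficient air libraries 1 and 2 averaged, 27 were higher and 43 lower in air, and 22 and 46 in physioxia, against 76.3% and 70% of all genes then tested past the test in either direction.

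The sizes of the differences were far from those of the table. An absolute log2 difference of at least 3 was found in 55 of the 97 tested segments in air (56.7%) and in 53 in physioxia (54.6%), against 3.93% and 3.98% of all tested genes. The median log2 difference of the tested segments was −1.83 in air and −1.84 in physioxia, while that of all tested genes was 0.24 and 0.06. With the segments that had no read in a whole group set to the bound from 3 reads over that group (15 in air and 13 in physioxia), both medians were as given. The filter passes a segment that is high in 1 genotype alone, so these shares describe the 97 and not the 11 segments left out. For a segment that met the filter through 1 genotype alone, entry largely fixed the direction, and its call adds no support to that direction. Of those 11, whose means over the 16 libraries ran from 2.28 to 11, 10 were Ighv and 1 Igkv. For 3 of them every Tet2-deficient library lay above every WT library, and 8 overlapped.

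**Figure D2:**
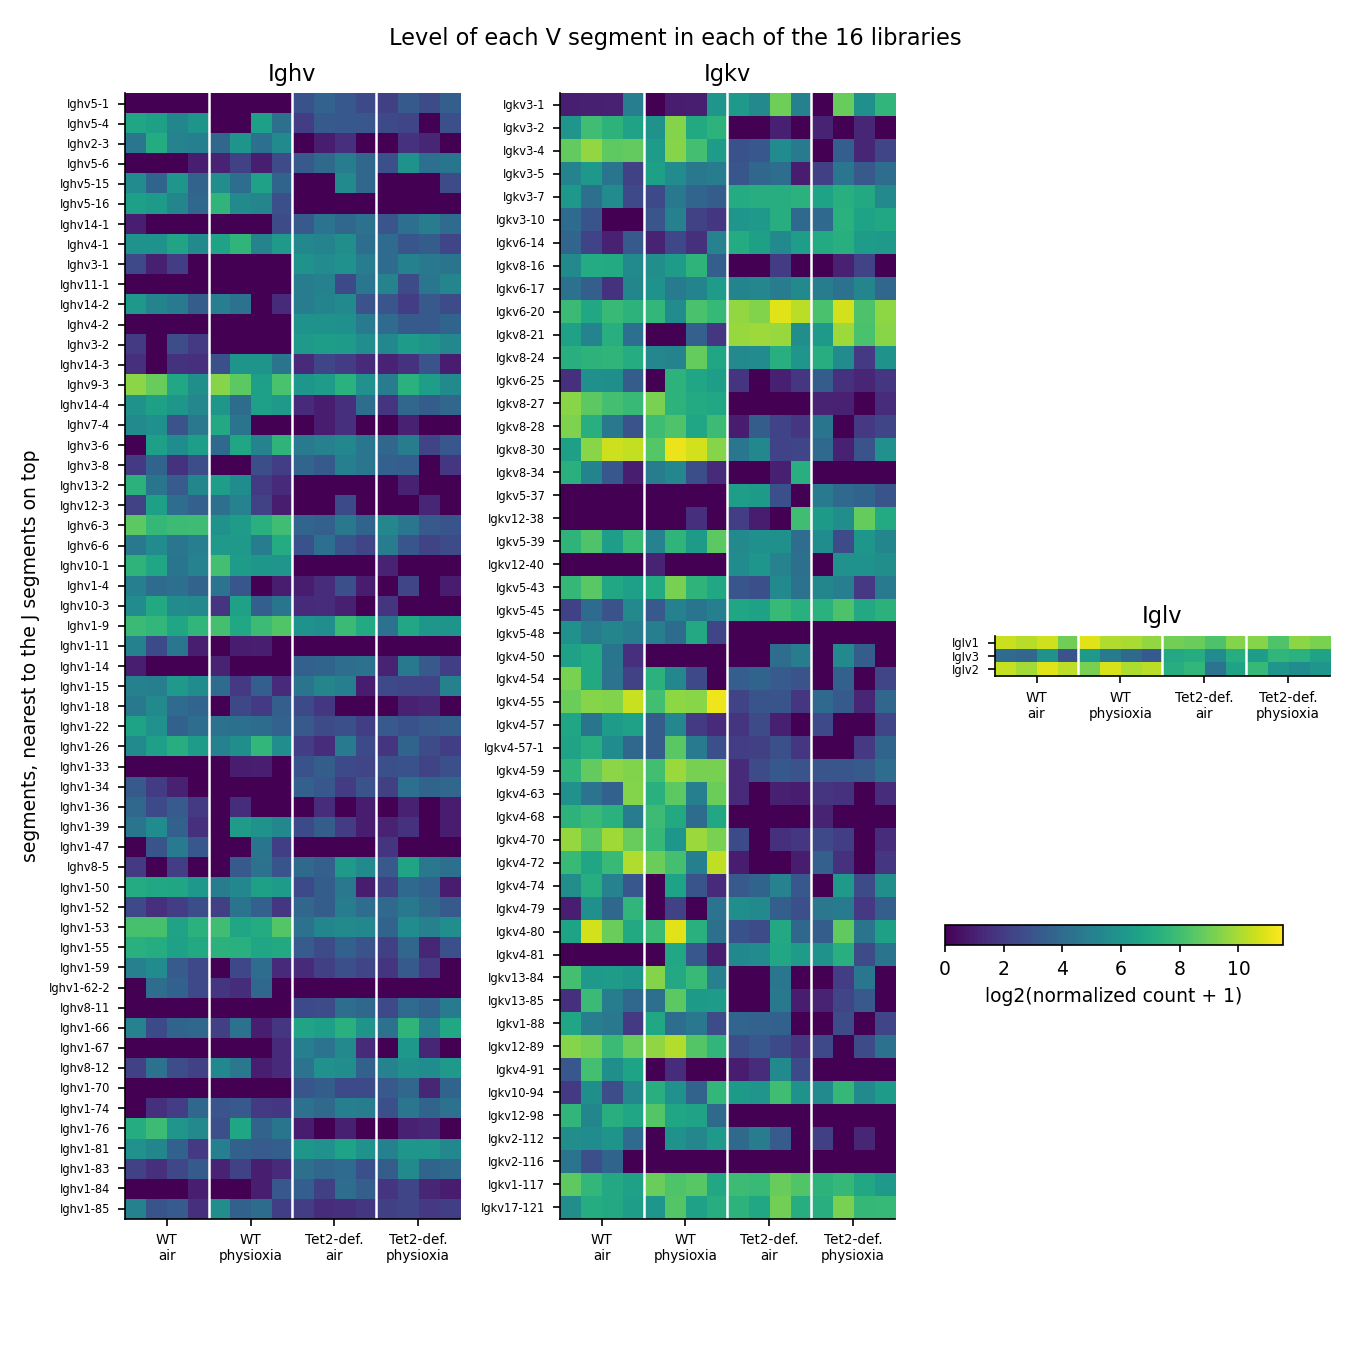
Level of each of the 108 V segments, as log2 of the normalized count plus 1 (colour), in the 16 libraries (columns, 4 per group, in replicate order). Rows of Ighv and Igkv run from the segment nearest the J segments at the top, those of Iglv by chromosome position, and the colour changes sharply at the border between the genotypes in many rows and little at the border between the oxygen conditions.

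Iglv1 and Iglv2 had the highest mean counts of the 108 segments, and both were lower in Tet2-deficient cells, Iglv2 by the larger step. Iglv2 stood at 1429, 972, 1966 and 1311 in WT air and at 141, 193, 20 and 102 in Tet2-deficient air. In physioxia it stood at 571, 1794, 1074 and 1272 in WT and at 209, 62.6, 47.6 and 65.3 in Tet2-deficient cells. No Tet2-deficient library reached the lowest WT library, and the log2 difference was −3.97 ± 0.59 in air (log2 differences are given ± SE from here on, limma adjusted p = 5.85e-05), while in physioxia it was −3.75 ± 0.59 (adjusted p = 0.0001). Iglv1 stood at 1507, 1247, 1609 and 519.5 in WT air, with 525, 474, 315 and 659 in Tet2-deficient air. The physioxia levels were 1975, 1115, 1060 and 799.8 in WT and 682, 326, 724 and 588 in Tet2-deficient cells. The log2 difference was −1.23 ± 0.36 in air (adjusted p = 0.00814) and −1.07 ± 0.36 in physioxia (adjusted p = 0.0161), and the WT air library at 519.5 overlapped the Tet2-deficient air libraries. The physioxia call was lost without WT library 1 (−0.82, adjusted p = 0.0616) or without Tet2-deficient library 2 (−0.82, adjusted p = 0.0621). The ratio of Iglv1 to Iglv2, which have the same coding length, was 0.396 to 1.28 in WT air and 0.622 to 3.46 in WT physioxia, against 2.46 to 15.7 and 3.26 to 15.2 in the Tet2-deficient groups. Iglv1 overlaps 2010309G21Rik on the opposite strand, and whether the counting used strand is not given in the sources used here. Iglv3, the most distant of the lambda segments in sequence (60.9% identical to Iglv1), went the other way: 15.4, 13.1, 58.4 and 6.7 in WT air, with 124, 139, 46 and 140.5 in Tet2-deficient air. The physioxia levels were 73.2, 24.9, 14.6 and 8.54 in WT and 87.4, 189, 163 and 98.9 in Tet2-deficient cells. The log2 difference was 2.53 ± 0.63 in air (adjusted p = 0.00326) and 2.48 ± 0.63 in physioxia (adjusted p = 0.00364), and the genotypes overlapped in air through Tet2-deficient library 3 at 46 and WT library 3 at 58.4.

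Among kappa segments the most abundant one differed between the genotypes. Igkv6-20 (chr6:70335841-70336507) had the highest mean of the 49 and was higher in Tet2-deficient cells. It stood at 229, 114, 224 and 170.3 in WT air, with 786, 641, 1962 and 1250 in Tet2-deficient air. The physioxia levels were 194, 46.1, 294 and 209 in WT and 289, 1694, 314 and 746 in Tet2-deficient cells. The log2 difference was 2.56 ± 0.58 in air (adjusted p = 0.00177), where the groups did not overlap, and 1.92 ± 0.58 in physioxia (adjusted p = 0.00939), where the lowest Tet2-deficient library lay just under the highest WT library. It was the leading Igkv segment in 5 of the 8 Tet2-deficient libraries, with up to 41% of the Igkv reads, and in no WT library. Its nearest relative, Igkv6-29 (98.6% identical), was not analysed here. Igkv8-30 (chr6:70117061-70117620), the next by mean count, stood at 93.2, 709, 1558 and 1379 in WT air and 352, 2289, 1679 and 689 in WT physioxia. In Tet2-deficient cells it stood at 22.1, 40.8, 4 and 4.23 in air and 14.2, 1.08, 6.79 and 55 in physioxia, below every WT library (−5.61 ± 1.04, adjusted p = 0.00039, and −6.50 ± 1.04, adjusted p = 0.000119). Igkv4-55 (chr6:69607275-69607828) stood at 479, 688, 638 and 1500 in WT air and 259.6, 737, 707 and 2375 in WT physioxia, and at 4.09, 6.95, 7 and 2.54 and 14.2, 8.64, 1.36 and 12.9 in the Tet2-deficient groups. Its highest Tet2-deficient value was 14.2 and its lowest WT value 259.6 (−7.01 ± 0.63, adjusted p = 4.24e-07, and −6.50 ± 0.63, adjusted p = 9.99e-07).

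The Igkv4 subgroup carried much of the kappa difference. Its 15 segments summed to 2969, 4381, 3415 and 4954 in WT air and 2008, 5159, 2432 and 5529 in WT physioxia. In Tet2-deficient cells they summed to 136, 142, 372 and 164 in air and 135, 739, 55.7 and 229 in physioxia, and the highest of these lay below the lowest WT library. Of the 15, 14 had a higher mean in WT and 1, Igkv4-81, in Tet2-deficient cells. Without the subgroup the other Igkv segments summed to 4542 ± 570 in WT air against 3542 ± 1328 in Tet2-deficient air, with the groups overlapping through Tet2-deficient library 3 at 5532. In physioxia they summed to 5250 ± 1990 and 2888 ± 1533, also overlapping. Without Igkv6-20 as well, the remaining Igkv segments summed to 4358 ± 581 in WT air against 2383 ± 830 in Tet2-deficient air, where the highest library, at 3571, lay below the lowest WT library, at 3673. In physioxia they summed to 5064 ± 2067 and 2127 ± 889, overlapping. These sets were chosen for this comparison after their values were seen.

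Beside Igkv8-30 and Igkv4-55, the kappa segments with the largest drops were nearly silent in Tet2-deficient cells. Igkv8-27 (chr6:70171809-70172270) stood at 712, 393, 264 and 215 in WT air and 579, 174, 128 and 119.5 in WT physioxia, at 0 in the 4 Tet2-deficient air libraries and at 1.18, 1.08, 0 and 1.72 in Tet2-deficient physioxia (−8.48 ± 0.49, adjusted p = 2.48e-09, and −6.73 ± 0.49, adjusted p = 4.6e-08). A log2 difference against a group at 0 depends on the added 1 and is not a fold. Igkv4-70 stood at 829.6, 376, 934 and 458 in WT air and 4.91, 0, 2 and 2.54 in Tet2-deficient air. In physioxia it stood at 209, 64.6, 877 and 576 in WT and 4.72, 3.24, 0 and 1.72 in Tet2-deficient cells. The genotypes were separate for both segments, with the weakest WT libraries, 119.5 for Igkv8-27 and 64.6 for Igkv4-70, far above any Tet2-deficient one. Igkv4-72 fell by 7.68 ± 0.97 on the log2 scale in air, from 419.8 ± 480.4 to 0.416 ± 0.481, and Igkv12-89 fell by 6.57 ± 0.72 in physioxia, from 617 ± 436 to 7.27 ± 8.13. Igkv3-2 had 1674 reads over the 8 WT libraries and 3 over the 8 Tet2-deficient ones, a ratio of 565 after scaling (95% counting interval 193 to 2740). For Igkv4-68 the reads were 1052 and 1. Both were past the test in both conditions.

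Other kappa segments were higher in Tet2-deficient cells. Igkv6-14 (chr6:70434952-70435476) stood at 12.5, 4.03, 1.1 and 8.61 in WT air, with 133, 91.2, 45 and 87.2 in Tet2-deficient air. The physioxia levels were 1.18, 4.61, 1.95 and 33.3 in WT and 129.9, 149, 81.5 and 74 in Tet2-deficient cells. Its genotypes did not overlap (3.79 ± 0.73, adjusted p = 0.000512, and 4.15 ± 0.73, adjusted p = 0.000258). The pseudogene Igkv12-40 was at 0 in 7 WT libraries and at 1.18 in the other, while in Tet2-deficient cells it stood at 46.6, 64.3, 33 and 17.8 in air and 0, 55.1, 58.4 and 50.7 in physioxia. It was past the test in both conditions, with 1 Tet2-deficient library at 0. Igkv12-38 varied more between libraries: 3.27, 0.868, 0 and 254 in Tet2-deficient air, and at 76.8, 49.7, 442 and 129.8 in Tet2-deficient physioxia, with 2 reads in all 8 WT libraries. It passed the test in physioxia (6.55 ± 1.24, adjusted p = 0.000473) and not in air (2.75 ± 1.24, adjusted p = 0.0518), where it passed without Tet2-deficient library 2 (adjusted p = 0.0325) or 3 (0.0196). Igkv4-81 was at 0 in the 4 WT air libraries and at 40.1, 45.1, 113 and 82.1 in Tet2-deficient air (6.03 ± 1.15, adjusted p = 0.000509). In physioxia it stood at 0, 114, 7.79 and 0.854 in WT and 57.9, 145, 5.44 and 20.6 in Tet2-deficient cells, overlapping (2.33 ± 1.15, adjusted p = 0.082), and passed without WT library 2 (3.71, adjusted p = 0.00283) or Tet2-deficient library 3 (3.12, adjusted p = 0.0318). Igkv3-1, 92.8% identical to Igkv3-2, stood at 0.961, 1.0, 1.1 and 29.7 in WT air and 74.5, 41.7, 495 and 32.2 in Tet2-deficient air. Its call in air (4.42 ± 1.68, adjusted p = 0.0264) was lost without Tet2-deficient library 3 (3.57, adjusted p = 0.0816) or without any of WT libraries 1 to 3 (adjusted p = 0.0609, 0.059 and 0.058).

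The heavy chain segments with the highest mean counts were lower or not distinguishable in Tet2-deficient cells. Ighv9-3 (chr12:114140692-114141122) stood at 721, 452, 117 and 51.7 in WT air and 677, 385, 88.5 and 296 in WT physioxia, a wide spread within 1 genotype. In Tet2-deficient cells it stood at 64.7, 80.8, 163 and 55 in air and 27.2, 162, 85.6 and 44.7 in physioxia, overlapping WT. Its log2 difference was −1.34 ± 0.77 in air (adjusted p = 0.114) and −2.15 ± 0.77 in physioxia (adjusted p = 0.0222). The physioxia call was lost without WT library 1 (adjusted p = 0.0743) or 2 (0.0505), or without Tet2-deficient library 1 (0.072) or 4 (0.0531), and in air the segment passed without WT library 4 (−2.01, adjusted p = 0.0263). Ighv1-53 (chr12:115158403-115158835) stood at 284, 283, 96.9 and 161 in WT air and 18.8, 38.2, 43 and 40.6 in Tet2-deficient air. In physioxia it stood at 247, 112, 132 and 345 in WT and 11.8, 45.4, 31.3 and 49 in Tet2-deficient cells. All 8 WT libraries lay above all 8 Tet2-deficient libraries (−2.45 ± 0.48, adjusted p = 0.00058, and −2.60 ± 0.48, adjusted p = 0.000378). Ighv1-9, at 180.3 ± 51 in WT air against 117 ± 82.8 in Tet2-deficient air, passed only in physioxia, with 238 ± 91 against 66.4 ± 41.5 (−1.99 ± 0.53, adjusted p = 0.0047). In air it passed without Tet2-deficient library 3 (−1.25, adjusted p = 0.0465), and its interaction term was −1.15 ± 0.75 (adjusted p = 0.624).

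Among heavy chain segments that were higher in Tet2-deficient cells, Ighv1-66 (chr12:115593110-115593591) had the highest Tet2-deficient mean of the 56 and was the leading Ighv segment in 4 of the 8 Tet2-deficient libraries. It stood at 33.6, 5.03, 12.1 and 13.4 in WT air and 103, 89.4, 158 and 61.8 in Tet2-deficient air. The physioxia levels were 3.54, 19.4, 0.973 and 2.56 in WT and 18.9, 183, 32.6 and 114 in Tet2-deficient cells, where library 1 lay just under the highest WT value (2.81 ± 0.75, adjusted p = 0.0049, and 3.60 ± 0.75, adjusted p = 0.001). The segments with the largest differences had lower Tet2-deficient means. The pseudogene Ighv3-2 (chr12:114033803-114034233) stood at 2.88, 0, 5.51 and 2.87 in WT air and 0 in the 4 WT physioxia libraries, against 71.2, 85.1, 81.1 and 48.2 in Tet2-deficient air, and at 40.2, 77.8, 61.2 and 40.4 in Tet2-deficient physioxia (4.49 ± 0.47, adjusted p = 2.12e-06, and 5.75 ± 0.47, adjusted p = 1.84e-07). Its neighbour Ighv3-1 stood at 56.5, 45.1, 55 and 27.1 in Tet2-deficient air, and at 15.4, 32.4, 23.1 and 20.6 in Tet2-deficient physioxia, and at 0 to 4.81 in WT. The pseudogene Ighv4-2, which lies between them, had no read in any WT library and stood at 57.3, 57.3, 53 and 24.6 in Tet2-deficient air, and at 15.4, 8.64, 8.15 and 12 in Tet2-deficient physioxia. Ighv11-1, in the same stretch of chromosome 12, also had no WT read and stood at 27, 31.3, 5 and 22 and 34.3, 5.4, 21.7 and 36.1 in the Tet2-deficient groups, and its near copy Ighv11-2 (98.9% identical) was not analysed here. Each of these segments was higher in all 8 Tet2-deficient libraries than in any WT library and passed the test in both conditions (limma adjusted p from 2.43e-08 to 3.85e-05). None of them reached 10 in a WT library, so they met the filter through Tet2-deficient libraries alone. Their direction was thus largely fixed by entry to the test, and the calls add no support to it. By subgroup, Ighv8 was higher in Tet2-deficient cells for 3 of its 3 segments, summing to 78.65 ± 42 against 9.621 ± 6.65 in air. The 2 Ighv10 segments summed to 150.5 ± 91.6 in WT air against 1.094 ± 0.799 in Tet2-deficient air, and the 28 Ighv1 segments divided into 11 with a higher Tet2-deficient mean and 17 with a higher WT mean.

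Some segments were found in 1 genotype and all but missing from the other, in either direction. At most 3 reads over the 8 Tet2-deficient libraries were found for 11 segments, and at most 3 over the 8 WT libraries for another 11. Each is 10.2% of the 108 segments, against 0.604% and 0.7% of all 6288 genes. V segments made up 28.9% of the genes with so few Tet2-deficient reads and 25% of those with so few WT reads. Igkv12-98 had 1021 WT reads and no Tet2-deficient read, at least 345-fold higher in WT with 3 reads over the group as the floor. Its WT levels were 191, 38.2, 149.8 and 112 in air and 343, 112, 99.2 and 14.5 in physioxia. Ighv5-16, with 467 WT reads and none in Tet2-deficient cells, was at least 158-fold higher in WT, and Igkv5-48, with 322 and none, at least 109-fold. Ighv10-1 had 806 reads in WT and 1 in Tet2-deficient cells. In the other direction Igkv5-37 had no WT read and 248 Tet2-deficient reads, at least 81.6-fold higher, but its levels were uneven: 84.3, 76.4, 6 and 0 in air and 24.8, 14, 12.2 and 6.88 in physioxia. Ighv4-2 was at least 85.2-fold and Ighv11-1 at least 63.2-fold higher in Tet2-deficient cells. Floors and intervals cover counting error only. Igkv12-98, Ighv5-16, Igkv5-48, Ighv10-1 and Igkv5-37 were singled out after their values were seen.

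Every WT library lay above every Tet2-deficient library for 28 segments (25.9%, against 18% of all genes measured), and the reverse held for 13 (12%, against 17.4%), so 41 were separate in all (38%, against 35.4%). By locus, 11 Ighv segments were separate in each direction, while for Igkv 16 were separate with WT higher and 2 with Tet2-deficient higher. Among Iglv segments, Iglv2 was separate and the other 2 were not. Per the labels the enriched cells were divided between air and physioxia, so the libraries of a genotype are not all independent samples. These separations are a description.

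Pseudogenes, which cannot give a working V domain, leaned to the Tet2-deficient side. Among the 9 analysed, 8 had a higher mean in Tet2-deficient cells: the 7 of Ighv and Igkv12-40. The exception, Igkv2-116, had 38 WT reads and no Tet2-deficient read. Of the functional V genes 28 of 99 had a higher Tet2-deficient mean. Other pseudogenes of the table did so in 65.3% of 236 cases and all genes in 52%. The test covered 5 of the 9 pseudogenes, and these 5 were higher in Tet2-deficient cells in air and in physioxia, as were 29.1% of all tested genes. They were Ighv4-2, Ighv3-2, Ighv1-14, Ighv1-83 and Igkv12-40. Of these, Ighv4-2, Ighv3-2, Ighv1-14 and Igkv12-40 met the filter through Tet2-deficient libraries alone. Their direction was thus largely fixed by entry to the test, and the calls add no support to the lean. Igkv2-116 was not tested.

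Some segments that are near copies of each other differed in opposite directions. Igkv5-45 stood at 3.85, 15.1, 6.61 and 42.1 in WT air and 109.7, 93.8, 220.2 and 157 in Tet2-deficient air. In physioxia it stood at 8.26, 32.3, 21.4 and 29.9 in WT and 159.5, 308, 124 and 164 in Tet2-deficient cells. Every Tet2-deficient library was above every WT library (3.45 ± 0.57, adjusted p = 0.000163, and 3.06 ± 0.57, adjusted p = 0.000437). Igkv5-43, which shares all but 5 of its 347 bases, stood at 202, 376, 119 and 88 in WT air and 7.37, 6.08, 43 and 19.5 in Tet2-deficient air. In physioxia it stood at 131, 563, 177 and 115 in WT and 37.8, 29.2, 2.72 and 24.9 in Tet2-deficient cells. Here every WT library was above every Tet2-deficient one (−3.48 ± 0.75, adjusted p = 0.0013, and −3.43 ± 0.75, adjusted p = 0.00141). The sum of the pair differed by less than the spread between libraries: 213 ± 124 in WT air against 164 ± 73.7 in Tet2-deficient air, and 269 ± 219 against 213 ± 88.9 in physioxia.

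The heavy chain pair showed the same pattern at lower levels. Ighv14-1 was at 0 in 6 WT libraries and at 0.961 and 5.12 in the other 2, and stood at 8.18, 20, 14 and 19.5 in Tet2-deficient air, and at 7.09, 17.3, 27.2 and 15.5 in Tet2-deficient physioxia (3.72 ± 0.61, adjusted p = 0.000141, and 3.36 ± 0.61, adjusted p = 0.000323). Ighv14-4 stood at 56.7, 90.6, 66.1 and 39.2 in WT air and 67.2, 15.7, 87.6 and 73.4 in WT physioxia, against 1.64, 0.868, 2 and 16.1 and 2.36, 13, 9.51 and 12.9 (−3.95 ± 0.68, adjusted p = 0.000228, and −2.52 ± 0.68, adjusted p = 0.00498). WT physioxia library 2, at 15.7, was the only WT library within the Tet2-deficient range of Ighv14-4. Ighv14-1 met the filter through Tet2-deficient libraries alone, so its direction was largely fixed by entry to the test. Unlike the kappa pair, the sum of the 2 was lower in Tet2-deficient cells, at 20.6 ± 11 against 63.4 ± 21.3 in air and 26.2 ± 11.7 against 62.3 ± 32.1 in physioxia. These 2 pairs are the closest in sequence among segments called in opposite directions in both conditions. Among the 81 tested segments with no annotated relative at 97% or more, 22 were higher and 41 lower in air (77.8%) and 18 and 42 in physioxia (74.1%), near the 79.5% and 69.4% of all tested genes.

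**Figure D3:**
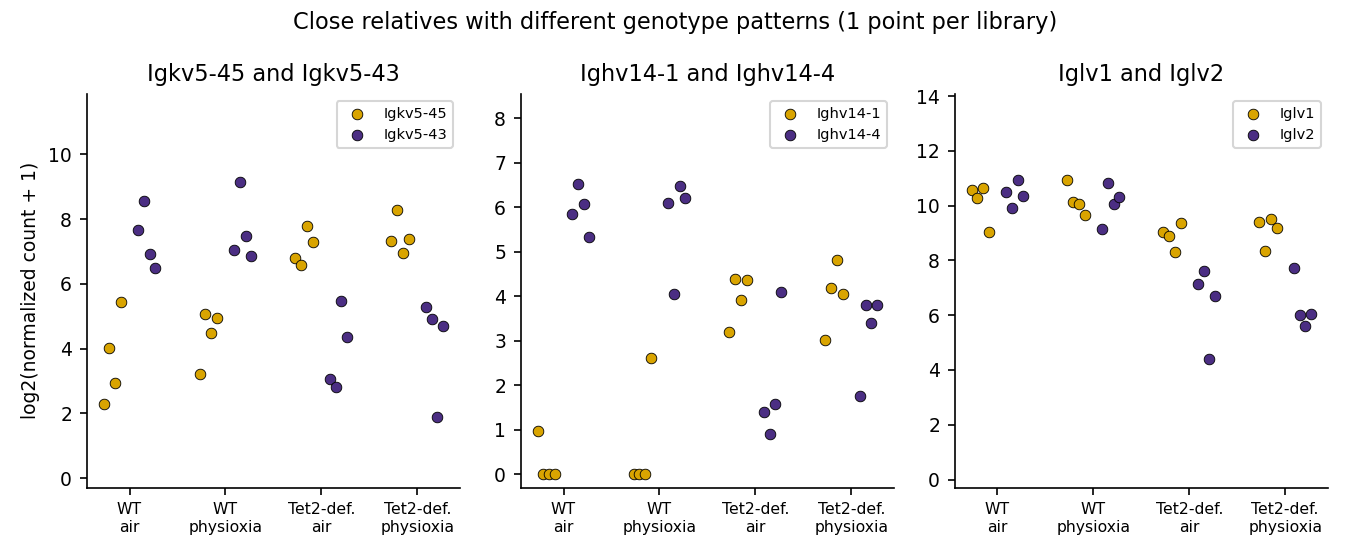
Levels of 3 pairs of closely related segments in each library, as log2 of the normalized count plus 1 (1 point per library, 4 per group). Igkv5-45 lies below Igkv5-43 in every WT library and above it in every Tet2-deficient library, Ighv14-1 lies below Ighv14-4 in every WT library, and Iglv1 and Iglv2 part in the Tet2-deficient libraries.

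Along the loci, segments higher in each genotype were interspersed. Ordered by distance from the J segments, the 49 Igkv rows formed 17 runs and the 56 Ighv rows 24 runs of neighbours whose mean was higher in the same genotype. The longest run held 14 Igkv segments with higher WT means, from Igkv5-48 at 1.00 Mb to Igkv4-80 at 1.71 Mb from Igkj1, of which 7 were separate in all libraries. In Ighv the longest run of higher WT means was 9 segments, from Ighv13-2 at 0.93 Mb to Ighv1-11 at 1.18 Mb from the nearest Ighj segment. The longest run of higher Tet2-deficient means was 6 segments, from Ighv8-11 at 2.14 Mb to Ighv1-74 at 2.37 Mb. Of Igkv segments in the nearer part of the locus (under 1.34 Mb) 10 of 30 had a higher Tet2-deficient mean, and of those farther out 3 of 19. For Ighv the numbers were 9 of 31 nearer than 1.29 Mb and 13 of 25 beyond it, the reverse order. Genes other than immunoglobulin genes within 5 Mb of each locus passed the genotype test in air in 89.2% of 37 cases around Ighv, 92.6% of 27 around Igkv and 83.7% of 43 around Iglv. Their median absolute log2 differences were 0.75, 1.14 and 0.83, against 0.71 for all tested genes and 3.47 for the tested V segments.

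**Figure D4:**
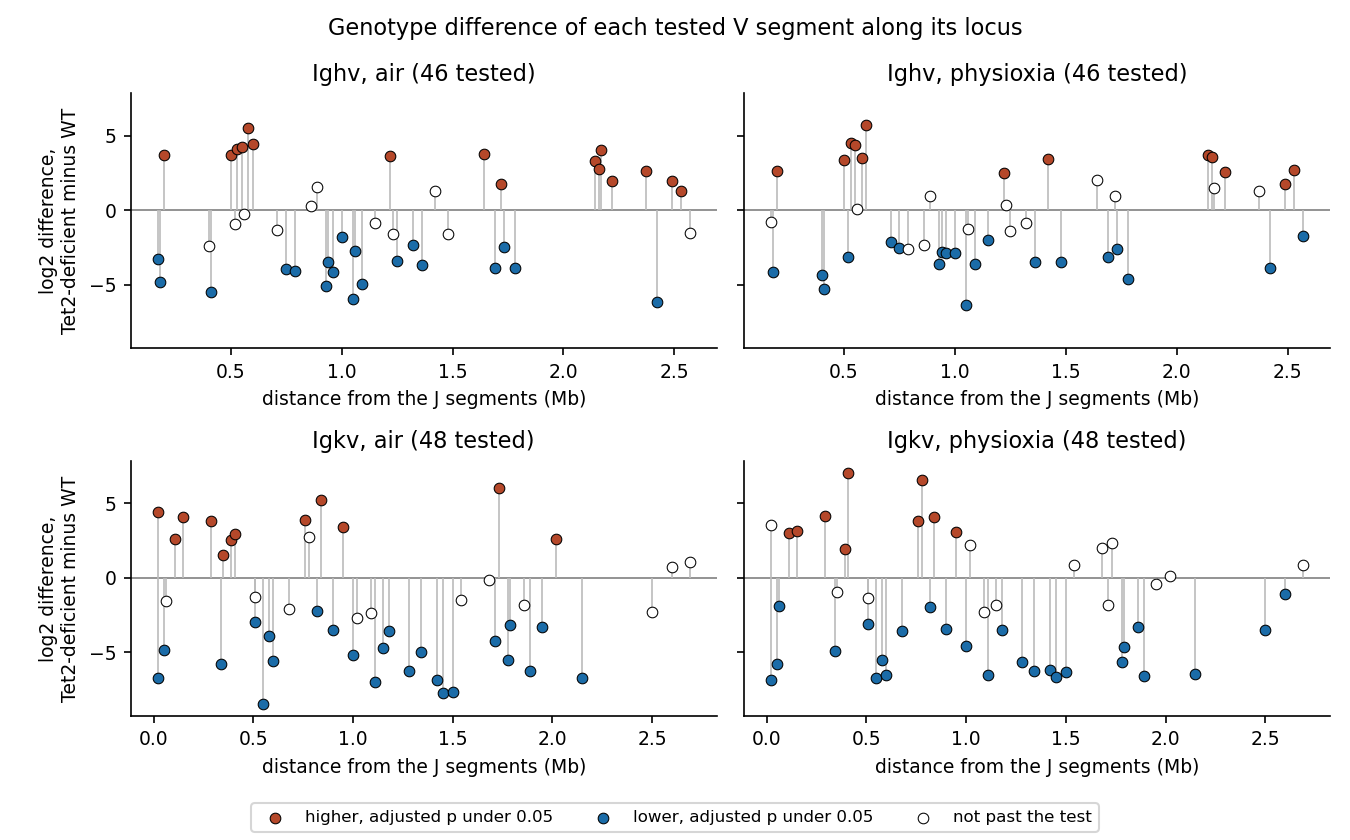
Log2 difference between the genotypes (Tet2-deficient minus WT) of each tested Ighv (46) and Igkv (48) segment against its distance from the J segments in Mb, in air and in physioxia. Filled points passed the test (adjusted p under 0.05) and open points did not, and higher and lower segments are interspersed along both loci. No filled point between 1.00 and 1.71 Mb of Igkv lies above 0, which largely follows from the choice of that stretch as the longest run of higher WT means.

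Oxygen had few detectable effects on V segments. In WT cells 0 segments were higher and 2 lower in physioxia than in air, 2.06% of the 97, against 5.76% of all tested genes (4.91% higher and 0.851% lower). Igkv4-91 (chr6:68768555-68769103) stood at 7.69, 271, 51.8 and 99.5 in WT air and at 0, 1.84, 0 and 0 in WT physioxia (−5.52 ± 0.98, adjusted p = 0.00955), and the groups did not overlap. In Tet2-deficient air it stood at 0.818, 1.74, 45 and 5.08, and at 0 in the 4 Tet2-deficient physioxia libraries. Igkv8-21 (chr6:70314895-70315472) stood at 95.2, 34.2, 145 and 17.2 in WT air and 0, 0, 10.7 and 2.56 in WT physioxia (−4.43 ± 1.05, adjusted p = 0.0219), also without overlap. Its oxygen call was lost without WT air library 1 (adjusted p = 0.0557) or 3 (0.0566), or without WT physioxia library 1 (0.0784) or 2 (0.0769). Igkv4-91 reached 10 in 4 libraries only, so without WT air library 2, 3 or 4 or Tet2-deficient air library 3 it was not tested. Without WT air library 3 no segment passed, and 1 did without WT air library 1, WT physioxia library 1 or Tet2-deficient air library 3. The count was 4 without WT air library 4 or Tet2-deficient air library 1, and 5 without Tet2-deficient air library 4. The shares of all genes called in these fits are not given here. In WT the same-numbered air and physioxia libraries deviated together, and with the replicate number as a block 1 segment was higher and 4 lower, against 6.43% of all tested genes higher and 1.13% lower. These were Igkv6-17 (higher) and Igkv4-91, Igkv8-21, Igkv4-79 and Ighv1-76 (lower).

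In Tet2-deficient cells and for the interaction of genotype and oxygen no segment passed limma's test, as was the case for all 6110 tested genes (0%). An unadjusted p under 0.05 was found for 7 and 12 segments, and for 280 and 546 genes of the table. DESeq2 called 2 segments lower in Tet2-deficient physioxia, Ighv4-2 and Igkv8-34, and Igkv8-34 for the interaction, while edgeR called none. The share of all tested genes called by DESeq2 is not given here, so these calls are no result about the segments as a set. Without Tet2-deficient air library 4, limma called Igkv12-38 higher in Tet2-deficient physioxia than in air (5.94, adjusted p = 0.00281). Ighv4-2 fell from 48 ± 15.8 in air to 11.1 ± 3.35 in physioxia. Igkv8-34 rests on 1 library, with 0, 0, 1 and 146 in Tet2-deficient air and 0 in Tet2-deficient physioxia. Igkv8-21, at 843, 904, 843 and 49.9 in Tet2-deficient air, and at 74.4, 891, 289.5 and 694 in Tet2-deficient physioxia, was higher than in WT in physioxia (7.07 ± 1.05, adjusted p = 6.38e-05) and in air (2.96 ± 1.05, adjusted p = 0.0198). The air call was lost without WT library 4 (adjusted p = 0.061) or Tet2-deficient library 2 (0.0511) or 3 (0.054), and the interaction was 4.11 ± 1.48 (adjusted p = 0.552).

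Single libraries dominated some segments. Igkv4-54 had 58.6% of its summed count in WT air library 1, with 574, 125, 19.8 and 3.83 in WT air and 159, 39.7, 4.87 and 0 in WT physioxia. WT air library 2 held 55.9% of Igkv4-91 and 49.6% of Ighv12-3, which stood at 3.85, 91.6, 16.5 and 10.5 in WT air. WT physioxia library 2 held 50% of Igkv4-57-1 and 45.1% of Igkv13-85, and Tet2-deficient physioxia library 3 held 46.1% of Igkv12-38. For Igkv13-85 the levels in WT were 1.92, 226, 28.6 and 13.4 in air and 17.7, 394, 74.9 and 78.5 in physioxia, high in the same-numbered library 2 of both. Its genotype difference in air (−3.15 ± 1.28, adjusted p = 0.0352) was lost when any of 5 single libraries was left out, WT 2 and 3 and Tet2-deficient 1, 2 and 4 (adjusted p from 0.0668 to 0.133).

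The mixture of segments in a library followed genotype. Over the shares of the 108 segments, on a log2 scale, WT libraries correlated with each other at r = 0.59 to 0.89 (median 0.75, 28 pairs) and Tet2-deficient libraries at 0.57 to 0.95 (median 0.77, 28 pairs). Between the genotypes r was −0.13 to 0.35 (median 0.01, 64 pairs). These correlations are across segments of 2 libraries, which are not independent, and are given as a description. Within WT, air and physioxia libraries of the same number correlated at 0.76 to 0.81 (4 pairs) and those of different numbers at 0.59 to 0.75 (12 pairs), so the ranges did not overlap. Tet2-deficient air 3 was closer to physioxia 2 (r = 0.83) than to any other library, and its chi-square per gene over the other genes was also lowest with that library (21.4). The Igkv mixture was less even in Tet2-deficient cells: the leading segment took 17.2% to 41% of Igkv reads, against 10.5% to 26.9% in WT. The inverse of the summed squared shares, which counts segments as if equally abundant, was 5 to 12.2 for Igkv in Tet2-deficient libraries and 8.37 to 18.3 in WT. For Ighv it was 15.7 to 22 and 9.37 to 18.2, so heavy chain use was not less even, and the leading Ighv segment took 8.29% to 15.8% of Ighv reads against 12.9% to 25% in WT.

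**Figure D5:**
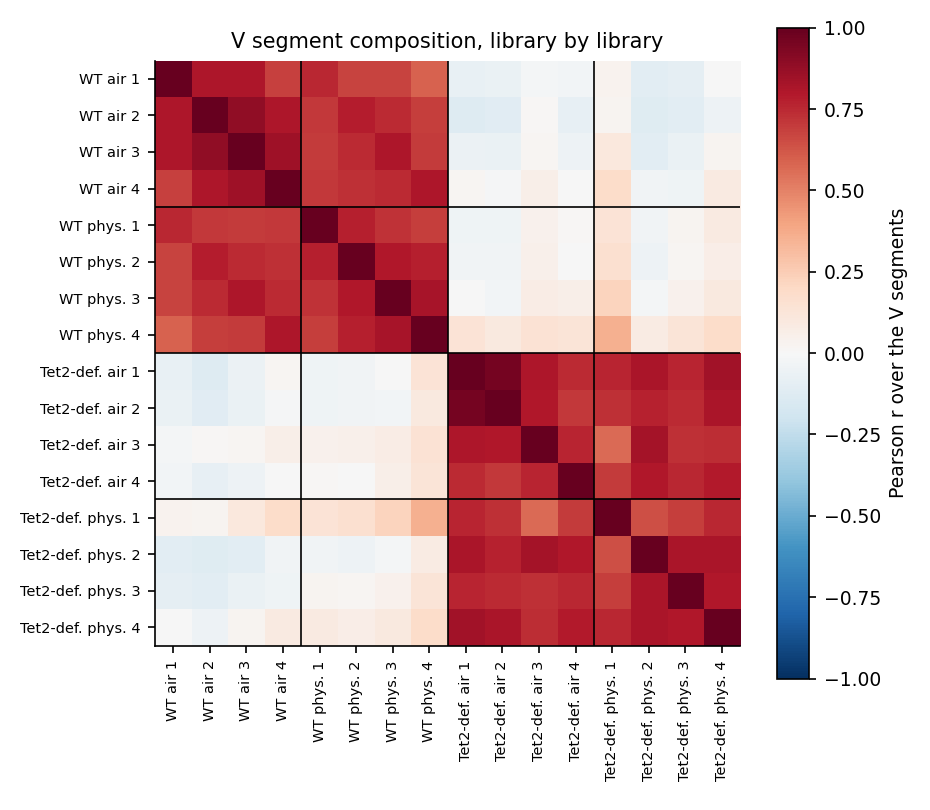
Pearson correlation of the log2 shares of the 108 V segments between each 2 of the 16 libraries (colour, from −1 to 1). The 2 blocks of 8 libraries of 1 genotype stand at 0.57 to 0.95 and the blocks between the genotypes at −0.13 to 0.35, with Tet2-deficient air 1 and 2 the closest pair.

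Most constant and joining segments in the table were lower in Tet2-deficient air, as were the V segments. Of 26 listed, 10 were in the table. In Tet2-deficient air 9 were lower and 1 higher (median −1.84), against 37.4% and 42.1% of all tested genes. In physioxia 4 were lower and none higher (median −0.99), against 33.6% and 35.9%, so the lower share there was near that of the table. Ighm, the constant region of IgM, stood at 21525, 23085, 18109 and 19228 in WT air, with 9182, 9535, 6340 and 7401 in Tet2-deficient air. The physioxia levels were 20128, 22207, 18286 and 19376 in WT and 8639, 6316, 7933 and 8759 in Tet2-deficient cells, without overlap of the genotypes (−1.35 ± 0.14, adjusted p = 1.95e-06, and −1.35 ± 0.14, adjusted p = 2.09e-06). Iglc2, a constant region that Iglv2 can be joined to, stood at 1465 ± 462 in WT air against 272 ± 95.9 in Tet2-deficient air (−2.44 ± 0.30, adjusted p = 9.61e-06). Iglc1, which Iglv1 can be joined to, stood at 984 ± 443 and 415 ± 103 (−1.10 ± 0.46, adjusted p = 0.0379). Iglc3 fell by 3.62 ± 0.47 on the log2 scale in air and by 3.32 ± 0.47 in physioxia. The class-switched constant regions Ighg2b, Ighg2c and Ighg3 were lower in air (log2 differences −1.71, −2.25 and −2.29) and not past the test in physioxia. Ighd, the IgD constant region of mature B cells, was the 1 that was higher in air, at 51.8 ± 3.65 against 22.4 ± 8.85 (1.26 ± 0.28, adjusted p = 0.0014). In physioxia Iglc1 did not pass (−0.71 ± 0.46, adjusted p = 0.177). Igkc, Igha, Ighg1 and Jchain were not analysed here.

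Genes of the B lineage were called in both directions in Tet2-deficient cells, with more lower than higher in most lists below. That held for every list in physioxia (median log2 differences −0.51 to −0.95). In air it held for all but the pro-B and pre-B list (medians of all lists −0.12 to −1.16). The lists share some genes. The counts are to be read against the 42.1% of all tested genes that were higher and 37.4% that were lower in air, and the 35.9% and 33.6% in physioxia. Of the recombination machinery 8 of 16 genes were in the table, with 2 higher and 3 lower in Tet2-deficient air, and 2 and 5 in physioxia. Dntt, which adds bases at V(D)J joints, was lower in physioxia (−0.57 ± 0.12, adjusted p = 0.000791), as was Vpreb1 of the surrogate light chain (−1.15 ± 0.27, adjusted p = 0.00225), and neither passed in air. Of 13 pro-B and pre-B genes measured 5 were higher and 3 lower in air, and 2 and 6 in physioxia. Of 11 mature B cell genes 4 were higher and 7 lower in air, and 2 and 6 in physioxia. Of 15 plasma cell genes 5 were higher and 9 lower in air, and 0 and 9 in physioxia. Xbp1, a regulator of antibody secretion that other cells also use, stood at 14923 ± 1965 in WT air against 7314 ± 1360 in Tet2-deficient air (−1.04 ± 0.14, adjusted p = 3.54e-05), and Irf4 passed only in physioxia (−0.98 ± 0.35, adjusted p = 0.0226). Sdc1, which marks plasma cells among other cells, was higher in air (0.59 ± 0.20, adjusted p = 0.0172). Of 6 germinal centre and class switch genes 2 were higher and 4 lower in air, and 1 and 4 in physioxia. Cd79a, Cd79b, Ms4a1, Pax5, Ebf1, Igll1, Rag1, Rag2, Mzb1 and Prdm1 were not analysed here, so the B lineage was not checked by its defining genes.

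Most markers of other mature cells were lower in Tet2-deficient cells, as were the V segments, against 37.4% of all tested genes lower in air and 33.6% in physioxia. Of 18 T and NK cell genes 14 were lower and 1, Cd4, higher in Tet2-deficient air (median −1.74), and 16 and 1 in physioxia. Their summed counts were 28068 to 46260 in WT and 18409 to 26551 in Tet2-deficient libraries. Nkg7 made up most of these sums, at 25029 to 40618 in WT and 17214 to 25442 in Tet2-deficient libraries. Its log2 difference in air was −0.42 ± 0.16, so the sums mainly describe that gene. Of 8 neutrophil genes 7 were lower in each condition, with sums of 2161 to 13675 in WT and 597 to 1930 in Tet2-deficient libraries. Of 11 plasmacytoid dendritic cell genes 8 were lower and 1 higher in air, and 9 and 0 in physioxia. The 6 LSK genes in the table, among them Kit, Procr and Hlf, were higher in Tet2-deficient cells in both conditions, against 42.1% and 35.9% of all tested genes, with sums of 4989 to 9237 in WT and 11911 to 18416 in Tet2-deficient libraries, and the other LSK genes of the list, Ly6a among them, were not analysed here. The part of these differences in the V segment levels was not tested.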

How the data were processed

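Per the submitters' processing notes, which give no versions, the authors used FastQC, cutadapt, STAR, HTSeq and DESeq2 with GRCm38. The deposited table holds counts divided by DESeq2 size factors, treated as a signal that is not scaled by length. Whole reads were recovered for 100% of its values (tolerance 0.01 reads). Symbols, positions and coding sequences came from GENCODE M21.

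Genes at 10 or more in 4 or more of the 16 libraries were fitted with limma 3.58.1 (R 4.3.3, intensity trend) on log2 of the value plus 1, all 16 libraries in 1 fit, two-sided, with Benjamini-Hochberg adjustment. A fold on this scale understates changes of low genes. edgeR 4.0.16 and DESeq2 1.42.0 on the recovered reads were alternatives. The fit was tested on simulated data. p-values rest on the spread between libraries of the same group, pooled over the 4 groups and drawn towards the intensity trend.

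Named segments were the 3 of each locus with the highest mean, up to 6 per pairwise contrast and direction with the largest difference among those called, and the 6 in which 1 library held the largest share of the sum. Others were named after their values were seen, and members and gene lists were chosen with earlier results of these data known. Deviations from group means of same-numbered WT air and physioxia libraries correlated at 0.33, 0.18, 0.16 and 0.33 over 6110 genes, each best with its own number, and the enriched cells were divided between air and physioxia per the labels, so the numbers pair these libraries. In Tet2-deficient libraries the values were 0.32, −0.27, 0.04 and −0.01. Only air library 1 was best with its own number there, and air library 3 was best with physioxia library 2 (0.50). The numbers thus do not pair the Tet2-deficient libraries as a set, and pairing in another order was not tested. PCR reads without molecular identifiers are not independent molecules, so intervals and floors cover counting error only.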

Additional observations from a re-analysis of the deposited data

Results flagged for a closer look

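In 35 of 180 groups of 4 values looked at, the highest or lowest library stood apart from the other 3 by Dixon's ratio. For normally distributed values chance gives this in about 1 in 20 groups, but that rate cannot be applied here. Some of the segments looked at were named because 1 library dominated them. In some other groups a single read stood against libraries with no read. The count of 35 is therefore a description and not a test. Tet2-deficient air library 3 was the highest for the summed Igkv level (5905) and the summed level of all V segments (7895), and for Igkv3-1 (495), Igkv4-91 (45), Igkv13-85 (24), Ighv12-3 (5.0) and Igkv3-2 (1.0). Tet2-deficient air library 4 was the highest for Igkv12-38 (254) and Ighv14-4 (16.1) and the lowest for Igkv8-21 (49.9) and Ighv4-2 (24.6).

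In WT air, library 2 was the highest for Ighv12-3 (91.6) and Igkv13-85 (226), library 4 for Igkv4-72 (1137) and Igkv3-1 (29.7), library 3 for Iglv3 (58.4) and library 1 for Ighv14-1 (0.961). In WT physioxia, library 2 was the highest for Igkv5-43 (563), Igkv13-85 (394), Igkv4-57-1 (373.5), Igkv4-81 (114), Ighv1-66 (19.4) and Igkv4-91 (1.85). Library 1 was the highest there for Igkv8-27 (579), Ighv10-1 (269) and Igkv12-40 (1.18), library 4 for Igkv3-1 (62.3), Igkv6-14 (33.3) and Ighv14-1 (5.12), and library 3 for Igkv12-38 (1.95). Igkv13-85 thus stood out in library 2 of both WT groups, and Igkv3-1 in library 4 of both.

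In Tet2-deficient physioxia, library 1 was the highest for Iglv2 (209), Igkv4-68 (1.18) and Ighv10-1 (1.18) and the lowest for Igkv12-40 (0), and library 3 was the highest for Ighv12-3 (1.36). Values near 1 stand for a single read.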

How the results depend on the processing

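No summed level changed direction under the alternatives run, nor did any named segment past the main test, where it was tested. For differences not past the main test the direction was not compared. The number of segments called for oxygen in WT (2) was 4 with a pseudocount of 0.5, 7 with no filter, 1 with a filter of at least 50, 4 with quantile normalization, 8 with DESeq2 and 0 with annotated genes outside the table counted as unchanged. In Tet2-deficient cells (0) it was 1 with a pseudocount of 5 and 2 with DESeq2, and for the interaction (0) it was 1 with DESeq2. A filter of at least 50 left 55 segments tested and gave 44 genotype calls in air (main count 74) and 46 in physioxia (main count 71). All these counts are to be read against the share of all tested genes called. In the main fit it was 5.76% for oxygen in WT, and for genotype 79.5% in air and 69.4% in physioxia. With a pseudocount of 0.5 these shares were 5.81%, 79.1% and 69.2%. With a pseudocount of 5 they were 5.71%, 80.1% and 70%, and 0.0164% for oxygen in Tet2-deficient cells. The shares can differ under the other alternatives, most of which are given without them, so those counts are a description only. The replicate block gave 5 calls for oxygen in WT, where the numbers pair the libraries, and 0 in Tet2-deficient cells. For genotype, where the samples share only a number, it gave 76 calls in air and 72 in physioxia. Without the most abundant segment of each library, the log2 ratio of summed levels moved from −1.18 to −1.62 for Igkv in air, from −1.89 to −1.32 for Iglv in air and from −1.59 to −2.09 for Iglv in physioxia.

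Leaving out 1 library gave 0 to 5 calls for oxygen in WT, 0 to 1 in Tet2-deficient cells, 67 to 76 for genotype in air, 64 to 71 in physioxia and 0 for the interaction. The shares of all genes called in these fits are not given here, so these counts are a description. The summed log2 ratio ran in air from −1.46 to −1.0 (Ighv), −1.49 to −1.08 (Igkv), −2.03 to −1.68 (Iglv) and −1.52 to −1.23 (all), and in physioxia from −1.78 to −1.25, −1.97 to −1.27, −1.70 to −1.46 and −1.83 to −1.34. Averaging Tet2-deficient air libraries 1 and 2, an alternative chosen after seeing the data, gave 3 oxygen calls in WT. Except for the stricter filter, which tests fewer segments, the cause of these changes was not tested. Segments with few reads limit what 4 libraries a group can show.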
